A study of Homo sapiens with 6 samples.

Results

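Epithelial sodium channel subunits, the membrane serine proteases that can cleave them and an inhibitor of these proteases were followed at the mRNA level in an esophageal cancer line and its KEAP1-null derivative. The 10 genes were SCNN1A, SCNN1B, SCNN1G, ST14, PRSS8, TMPRSS4, TMPRSS11A, TMPRSS11D, TMPRSS11E and SPINT1, found by symbol among the 58884 genes of the deposited table. They were picked with the difference between these lines known, so their changes are described here and carry no test of the choice. KYSE450 is a human esophageal squamous cell carcinoma (ESCC) line with wild-type NRF2, and KEAP1null-KYSE450 was made from it by CRISPR-Cas9 disruption of KEAP1, the adaptor that directs the transcription factor NRF2 to degradation. Total RNA was sequenced from 3 libraries of each line, both grown untreated in RPMI1640 medium with fetal bovine serum. KEAP1null-KYSE450 is a single monoclonal line, so loss of KEAP1 and any other difference between this clone and the parental cells cannot be told apart. Nothing states that the libraries of a line came from separate cultures, so p-values measure only the spread between these libraries, which may be technical.

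The epithelial sodium channel carries sodium across the apical membrane of many epithelia and is assembled from alpha, beta and gamma subunits, encoded by SCNN1A, SCNN1B and SCNN1G. The channel conducts little sodium until its alpha and gamma subunits are cleaved, inside the cell by furin and at the surface by trypsin-like serine proteases anchored in the membrane. These proteases, among them matriptase (ST14) and prostasin (PRSS8), are also needed for the barrier of stratified squamous epithelium, and the Kunitz-type protein encoded by SPINT1 holds matriptase in check.

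The libraries were deep and alike within a line. Their normalized counts summed to between 54829313 and 57380170, and in the 4 libraries whose reads were recovered the depth was 53027359 to 61543442 reads. A count of 3 reads, taken as the floor of detection, equaled 2.77 to 3.21 normalized counts. Over the 16701 genes tested, Pearson's r was 0.98 to 0.99 between libraries of a line and 0.92 to 0.94 across lines. KEAP1 mRNA was at 5760, 5226 and 5146 normalized counts in KYSE450 and at 5737, 4906 and 5317 in KEAP1null-KYSE450, which overlap, and counts do not show whether the transcripts carry the edit. Squamous markers (KRT5, KRT6A, TP63, DSG3 and CDH1, all 5 detected) summed to 272431 to 377200 normalized counts in KYSE450 and 548298 to 688498 in KEAP1null-KYSE450, a sum set mostly by KRT5. The median log2 fold change of these 5 markers was -0.60: KRT6A, a keratin of stressed or activated squamous cells, was at -4.70, CDH1 at -0.82 and TP63 at -0.60, and KRT5 at 1.46 and DSG3 at 0.41. Markers of fibroblasts summed to 607 to 839 and 347 to 431 with COL1A2 at 0.92 or less, those of endothelium to 10.7 to 28.9 and 1.01 to 3.06, all of it CDH5 with PECAM1 at 0, those of leukocytes to 8.09 or less, and those of glandular or ciliated epithelium to 20.2 or less with CDX2 at 0. In bulk RNA, fewer cells of a type and less RNA per cell cannot be told apart.

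The members lie on 5 chromosomes of hg38 (gencode v44 coordinates). SCNN1A is on the minus strand of chr12:6346843-6377730. SCNN1G (chr16:23182745-23216883) and SCNN1B (chr16:23278231-23381294) follow each other on the plus strand, 61.348 kb apart, and PRSS8 is elsewhere on that chromosome (chr16:31131433-31135727, minus strand). ST14 (chr11:130159782-130210362) and TMPRSS4 (chr11:118077012-118121890) share chromosome 11, both on the plus strand, and SPINT1 is on the plus strand of chr15:40844018-40858207. TMPRSS11D (chr4:67820876-67884002, minus strand), TMPRSS11A (chr4:67909395-67964140, minus strand) and TMPRSS11E (chr4:68447463-68497604, plus strand) belong to a single protease cluster of 676.729 kb. No stretch of 31 bases was shared between annotated transcripts of the members, TMPRSS11B, TMPRSS11F and SCNN1D.

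Promoter windows of 5 of the 10 members, 6 windows in all, were available from RefSeq on GRCh38.p14. SCNN1A, SCNN1G, ST14, PRSS8 and TMPRSS4 were not matched. Each sequence below is the sense strand from 250 bases before the transcription start through the first transcribed base. For SCNN1B that start, 23302302, lies inside the gene span given above, which begins at 23278231. Its window is thus that of an internal start, and the beginning of the span had no window. The TMPRSS11A start, 67963493 on the minus strand, also lies inside its gene span, which ends at 67964140. So do the SPINT1 starts, 40844048 and 40844477, in a span that begins at 40844018. TMPRSS11A, TMPRSS11E and SCNN1B are shown because their mRNA was higher in KEAP1null-KYSE450. TMPRSS11D is shown as a cluster gene that was near 0 in both lines. SPINT1 is shown because its first window ends in the only motif match, given in capitals.
TMPRSS11D, chr4:67884002-67884252, minus strand: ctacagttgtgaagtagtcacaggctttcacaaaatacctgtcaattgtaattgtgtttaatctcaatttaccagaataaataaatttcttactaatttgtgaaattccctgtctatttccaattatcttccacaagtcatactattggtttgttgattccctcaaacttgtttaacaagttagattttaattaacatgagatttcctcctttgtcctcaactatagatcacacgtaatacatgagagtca
TMPRSS11A, chr4:67963493-67963743, minus strand: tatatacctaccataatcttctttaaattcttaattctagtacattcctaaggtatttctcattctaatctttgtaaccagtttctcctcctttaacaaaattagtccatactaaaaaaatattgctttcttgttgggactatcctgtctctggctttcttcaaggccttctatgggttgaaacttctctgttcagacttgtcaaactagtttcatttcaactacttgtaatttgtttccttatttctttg
TMPRSS11E, chr4:68447213-68447463, plus strand: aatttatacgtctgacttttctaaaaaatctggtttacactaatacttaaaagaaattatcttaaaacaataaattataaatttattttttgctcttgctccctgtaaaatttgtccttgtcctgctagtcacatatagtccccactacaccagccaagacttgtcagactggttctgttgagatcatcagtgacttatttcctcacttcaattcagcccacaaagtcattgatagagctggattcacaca
SCNN1B, chr16:23302052-23302302, plus strand: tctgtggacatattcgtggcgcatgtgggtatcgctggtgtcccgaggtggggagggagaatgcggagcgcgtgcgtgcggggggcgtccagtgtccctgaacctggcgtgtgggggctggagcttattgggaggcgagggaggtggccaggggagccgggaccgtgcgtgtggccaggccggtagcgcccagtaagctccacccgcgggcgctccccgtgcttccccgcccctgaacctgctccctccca
SPINT1, chr15:40843798-40844048, plus strand: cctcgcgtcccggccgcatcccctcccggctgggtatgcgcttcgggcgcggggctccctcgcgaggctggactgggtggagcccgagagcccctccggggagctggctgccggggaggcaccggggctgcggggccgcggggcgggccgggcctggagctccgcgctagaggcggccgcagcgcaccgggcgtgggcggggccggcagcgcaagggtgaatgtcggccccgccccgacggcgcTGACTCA

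The 3 windows of the TMPRSS11 cluster were rich in A and T, with a GC content of 31.5% for TMPRSS11D, 31.9% for TMPRSS11A and 34.3% for TMPRSS11E. The SCNN1B window held 69.7% GC, and the SPINT1 windows 80.1% and 70.5%. The motifs searched on both strands of the full windows, which run on to 50 bases past the start, were TGACNNNGC, the core of the antioxidant response element bound by NRF2 with small MAF proteins, and TGANTCA, the AP-1 site. The antioxidant response element core was in 13.3% of all 35116 windows and in 0 of the 6 member windows. The AP-1 motif was in 7.71% of all windows and in 1 member window, that of SPINT1, from position -6 to the first transcribed base at position 1. These are matches of letters in a short window and say nothing of binding, there or farther away.

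Each of the 3 channel subunits was higher in every KEAP1null-KYSE450 library than in any KYSE450 library, from very different starting levels. SCNN1A, the alpha subunit, was at 2471, 1703 and 1684 normalized counts in libraries 1 to 3 of KYSE450 and at 3550, 2707 and 2537 in those of KEAP1null-KYSE450. The lowest KEAP1null-KYSE450 library was only slightly above the highest KYSE450 library, so the lines did not overlap. The difference was 0.59 on the log2 scale (standard error 0.16), or 1.51-fold, below the fold asked of a call (a log2 fold change of 1 and an adjusted p under 0.05). SCNN1B, the beta subunit, was close to absent from KYSE450, with 2.14, 1.01 and 0.93 normalized counts. In KEAP1null-KYSE450 it was at 84.9, 78.5 and 98.9. All 3 KYSE450 values were at or under the floor of 3 reads, and the KEAP1null-KYSE450 values lay far above it.

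SCNN1G, the gamma subunit, was listed at 0 in KYSE450 libraries 1 and 2 and at 6.53 normalized counts in library 3. In KEAP1null-KYSE450 it was at 44.3, 34.7 and 35.3, all above the single KYSE450 library in which it was seen. The fitted log2 fold changes, on log2 of the normalized count plus 1, were 5.26 (standard error 0.48) for SCNN1B and 4.31 (standard error 0.80) for SCNN1G. Since they rest on the value added before taking logs, they ranged from 3.10 to 5.99 for SCNN1B and from 2.02 to 6.55 for SCNN1G with 10 or 0.1 added instead. In whole reads of the 2 libraries of each line where reads were recovered, SCNN1B had 3 reads in KYSE450 and 169 in KEAP1null-KYSE450, a depth-corrected ratio of 54.8 (exact 95% interval 18.4 to 268). SCNN1G had 7 and 82 reads, a ratio of 11.4 (5.29 to 29.2). These intervals cover counting error only. Both genes reached the filter of a mean normalized count of 10 only through the KEAP1null-KYSE450 libraries.

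Per kilobase of exon, SCNN1A remained by far the main subunit transcript in both lines. It stood at 332 ± 76.4 normalized counts per kb (SD, n = 3) in KYSE450 and 499 ± 92.3 in KEAP1null-KYSE450. SCNN1B went from 0.35 ± 0.17 to 22.5 ± 2.68 and SCNN1G from 0.63 ± 1.08 to 10.95 ± 1.55 on the same scale. Together the beta and gamma transcripts made up 0.131%, 0.0898% and 0.733% of the summed subunit level in the KYSE450 libraries. Their share in the KEAP1null-KYSE450 libraries was 5.42%, 6.15% and 7.62%, above every KYSE450 library. All 3 subunits were above the floor of detection in each KEAP1null-KYSE450 library.

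**Figure D1:**
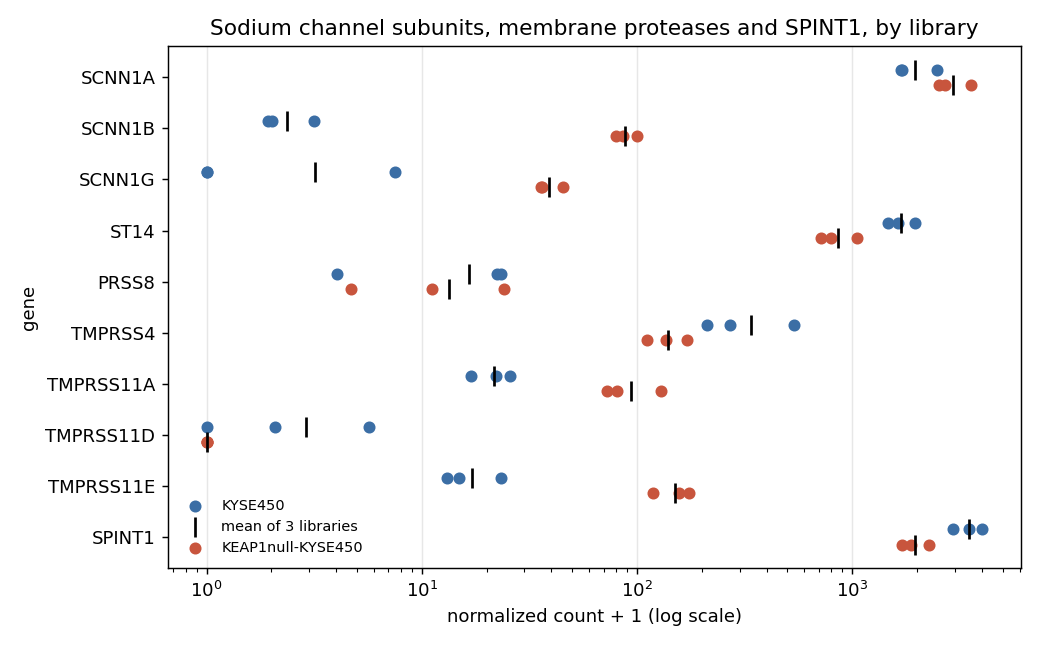
Normalized counts plus 1 (log scale) of the 10 genes in each of the 6 libraries, with black bars at the mean of 3 libraries. SCNN1B, SCNN1G, TMPRSS11A and TMPRSS11E lie farther right in KEAP1null-KYSE450 (red), ST14, TMPRSS4 and SPINT1 farther left, and only PRSS8 and TMPRSS11D overlap between the lines.

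The proteases split. Matriptase (ST14), a type II transmembrane protease of squamous and other epithelia, was at 1960, 1628 and 1463 normalized counts in KYSE450 and at 1048, 719 and 800 in KEAP1null-KYSE450. Every KEAP1null-KYSE450 library was below every KYSE450 library. The difference, -0.98 on the log2 scale (standard error 0.15) or 1.98-fold lower, stopped just short of the fold asked of a call. ST14 passed it, at -1.003, -1.08 and -1.14, without KYSE450 library 2, KYSE450 library 3 or KEAP1null-KYSE450 library 1. TMPRSS4, a transmembrane protease known from epithelial tumors and able to activate the sodium channel when both are expressed, was at 536, 271 and 210 normalized counts in KYSE450 and at 135, 169 and 110 in KEAP1null-KYSE450. The lines did not overlap, but KYSE450 library 1 was well above its sister libraries. The log2 fold change of TMPRSS4 was -1.20 (standard error 0.29), past both thresholds, and -0.81 without KYSE450 library 1, which ended the call.

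TMPRSS11E and TMPRSS11A, from a cluster of proteases expressed mainly in squamous and airway epithelium, went the opposite way. TMPRSS11E, also called DESC1, was at 13.9, 22.2 and 12.1 normalized counts in KYSE450 and at 173, 156 and 118 in KEAP1null-KYSE450. TMPRSS11A was at 24.6, 21.2 and 15.8 in KYSE450 and at 79.4, 128 and 71.6 in KEAP1null-KYSE450. For both genes the lowest KEAP1null-KYSE450 library was well above the highest KYSE450 library. On the log2 scale TMPRSS11E was higher by 3.16 (standard error 0.32), a difference of 8.95-fold, and TMPRSS11A by 2.10 (standard error 0.34), a 4.29-fold difference. TMPRSS11E gained more than TMPRSS11A within the same libraries. Its log2 ratio to TMPRSS11A was 1.06 higher in KEAP1null-KYSE450, the libraries of the lines did not overlap in this ratio, and the difference stayed between 0.85 and 1.27 with any library left out.

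TMPRSS11D, the human airway trypsin-like protease, was at 1.07, 0 and 4.66 normalized counts in KYSE450 and at 0 in all 3 KEAP1null-KYSE450 libraries. Its mean was below the filter, so it was not tested and no fold is given. A count of 0 does not show absence, since an expected level of up to 3 reads in a library can still give 0. PRSS8, the glycolipid-anchored protease prostasin that works in a cascade with matriptase, was at 21.4, 3.03 and 22.4 normalized counts in KYSE450 and at 3.69, 10.2 and 23.2 in KEAP1null-KYSE450. The lines overlapped over almost their whole range. Its log2 fold change of -0.24 had a standard error of 0.79. The sign turned, to between 0.16 and 0.36, without KYSE450 library 1, KYSE450 library 3 or KEAP1null-KYSE450 library 1. No direction can thus be given for PRSS8 from these libraries.

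SPINT1, the Kunitz-type inhibitor of matriptase and related proteases, was at 4001, 3495 and 2926 normalized counts in KYSE450 and at 2267, 1708 and 1883 in KEAP1null-KYSE450. Each KEAP1null-KYSE450 library was below each KYSE450 library, and the log2 fold change was -0.83 (standard error 0.13), or 1.78-fold lower. Within libraries, the log2 ratio of ST14 to SPINT1 was only 0.15 lower in KEAP1null-KYSE450, although its values, -1.03, -1.10 and -0.9995 in KYSE450 and -1.11, -1.25 and -1.23 in KEAP1null-KYSE450, did not overlap. The log2 ratio of SCNN1A to ST14 was 1.58 higher and did not overlap either. The log2 ratio of SPINT1 to SPINT2, the related Kunitz-type inhibitor, was 0.45 lower, again without overlap. Ratios of TMPRSS4 to ST14 and of SCNN1B to SCNN1G overlapped between the lines. In both lines library 1 was the highest of its line for SCNN1A, ST14 and SPINT1. Without KYSE450 library 1 or KEAP1null-KYSE450 library 1 the log2 fold changes were 0.78 and 0.45 for SCNN1A, -0.87 and -1.14 for ST14, and -0.72 and -0.94 for SPINT1. Ratios within a library do not depend on that library's scale.

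Among the 10 genes, 4 passed both thresholds upward (SCNN1B, SCNN1G, TMPRSS11A and TMPRSS11E), 1 downward (TMPRSS4) and 4 neither, and TMPRSS11D was not tested. Over all 16701 genes tested, 12.2% passed upward, 5.98% downward and 18.2% in either direction. By adjusted p alone 5 members were higher and 3 lower, against 24.3% and 25.5% of all genes tested (49.8% in either direction). The lines did not overlap for 8 of the 9 members tested, with 5 higher and 3 lower. Over all genes tested they did not overlap for 57.8% (28.4% higher and 29.3% lower). The median log2 fold change was 0.59 over the 9 members tested and 0.0041 over all genes tested. Since the members were picked with these differences known, nothing is read from these counts.

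**Figure D2:**
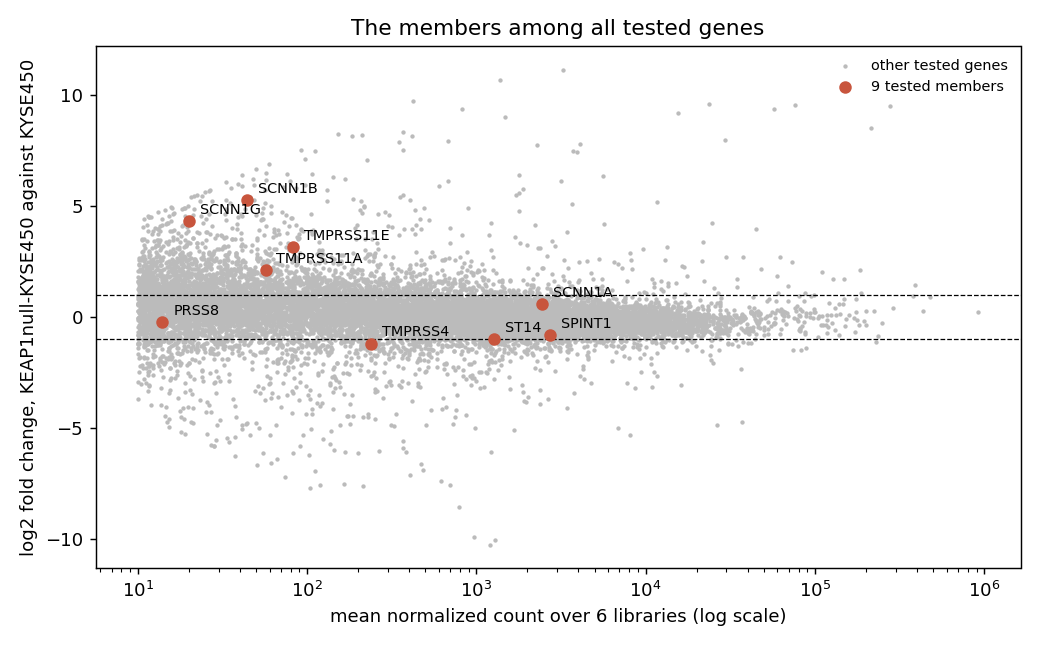
Log2 fold change of KEAP1null-KYSE450 against KYSE450 (vertical axis) against the mean normalized count over 6 libraries (log scale) for the 16701 genes tested, with the 9 tested members in red and broken lines at log2 fold changes of 1 and -1. SCNN1B and SCNN1G lie near the upper edge of the cloud at low counts, while SCNN1A, ST14 and SPINT1 lie at higher counts within the broken lines.

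The order of the members by level per kilobase differed between the lines. In KYSE450 SPINT1 was first (981 ± 152 normalized counts per kb, SD, n = 3), followed by ST14 (409 ± 61.6) and SCNN1A (332 ± 76.4), which overlapped each other, and by TMPRSS4 (34.1 ± 17.4). TMPRSS11E (7.57 ± 2.54), PRSS8 (5.24 ± 3.66) and TMPRSS11A (5.19 ± 1.11) came next with overlapping values, and SCNN1G, TMPRSS11D and SCNN1B were last, all below 1 on average. In KEAP1null-KYSE450 SPINT1 (551 ± 80.8) and SCNN1A (499 ± 92.3) overlapped at the top, ahead of ST14 (208 ± 41.7) and TMPRSS11E (70.2 ± 13.3). TMPRSS11A (23.5 ± 7.78) and SCNN1B (22.5 ± 2.68) then overlapped, as did TMPRSS4 (13.9 ± 2.99) and SCNN1G (10.95 ± 1.55), and PRSS8 (4.16 ± 3.34) and TMPRSS11D followed. With the longest transcript as the length instead of the union of exons, 6 members in KYSE450 and 4 in KEAP1null-KYSE450 took another place.

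Set among the 16630 tested genes with an annotated length, the members covered most of the range of levels per kilobase. SPINT1 was above 84.9% of genes in KYSE450 and above 76.6% in KEAP1null-KYSE450, and ST14 above 69.3% and 56.6%. SCNN1A moved from above 65.2% to above 74.7%. TMPRSS11E moved from 11.7% to 36.3%, SCNN1B from 0.553% to 19.3%, and PRSS8 stayed low at 8.86% and 4.45%. The beta and gamma subunit transcripts remained among the less abundant ones, SCNN1G being above 11.5% of genes in KEAP1null-KYSE450.

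These levels gave the protease transcripts another make-up in KEAP1null-KYSE450. ST14 accounted for 86.5%, 89.98% and 89.94% of the summed level per kilobase of the 6 member proteases in the KYSE450 libraries. In KEAP1null-KYSE450 its share was 68.6%, 58.0% and 67.8%. TMPRSS11A and TMPRSS11E together held 2.32%, 3.60% and 2.46% in KYSE450 and 27.4%, 35.2% and 25.7% in KEAP1null-KYSE450. No library of the other line fell within either range. ST14 was thus still the most abundant of the 6 transcripts in every library, with the pair from the TMPRSS11 cluster next in KEAP1null-KYSE450. That place of TMPRSS11A depends on the length used. Per kilobase of longest transcript, TMPRSS4 was at 24.3, 30.5 and 19.8 in KEAP1null-KYSE450 libraries 1 to 3. TMPRSS11A was at 24.0, 38.9 and 21.7, thus slightly below TMPRSS4 in library 1 and above it in libraries 2 and 3.

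**Figure D3:**
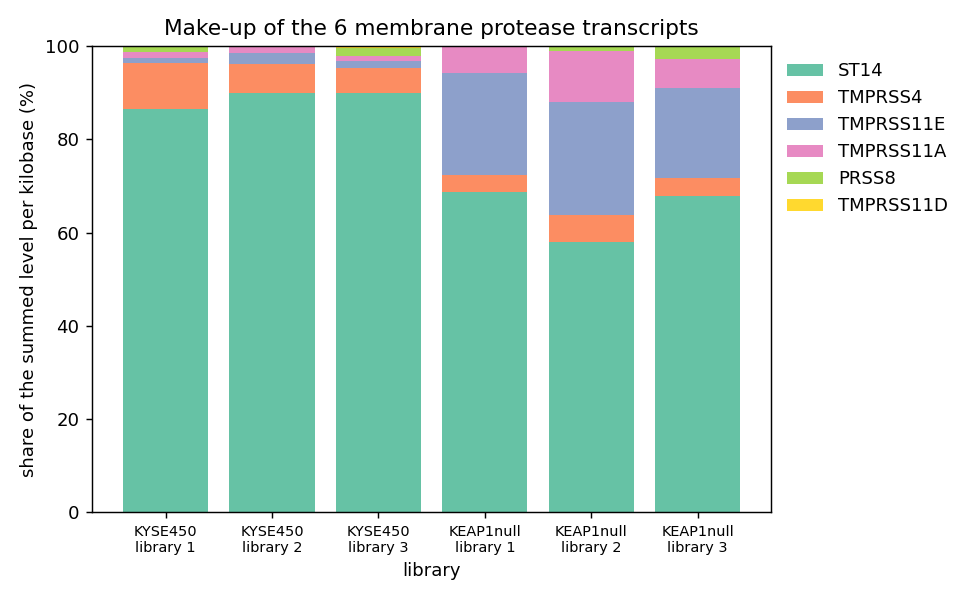
Share (%) of each of the 6 member proteases in their summed level per kilobase, 1 bar for each library. ST14 fills 86.5% to 89.98% of the KYSE450 bars and 58.0% to 68.6% of the KEAP1null-KYSE450 bars, where TMPRSS11E and TMPRSS11A take up most of the remainder.

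Along the cluster on chromosome 4 only YTHDC1 and UBA6-DT were tested among the other genes, and neither passed both thresholds. TMPRSS11F was at 1.07, 0 and 4.66 normalized counts in KYSE450 and at 0.92, 3.06 and 4.04 in KEAP1null-KYSE450, and TMPRSS11B was at 0 in every library. YTHDC1, which encodes a reader of methylated adenosine in RNA and lies between TMPRSS11B and TMPRSS11E, was at a log2 fold change of -0.27 ± 0.12 (SE), with an adjusted p of 0.069 in limma (Benjamini-Hochberg). The long noncoding gene UBA6-DT runs on the opposite strand across TMPRSS11D and TMPRSS11A but shares 0 exonic bases with them, and its log2 fold change was -0.089 (standard error 0.12). The pseudogenes POLR2MP1 (1.86 to 7.49 and 0.92 to 11.2 normalized counts) and MT2P1 (3.03 to 6.53 and 4.61 to 14.1) were low. TMPRSS11GP, RNU6-95P, MTND2P41, SYT14P1, FTLP10, TMPRSS11BNL and APOOP4 were at 0 in every library.

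**Figure D4:**
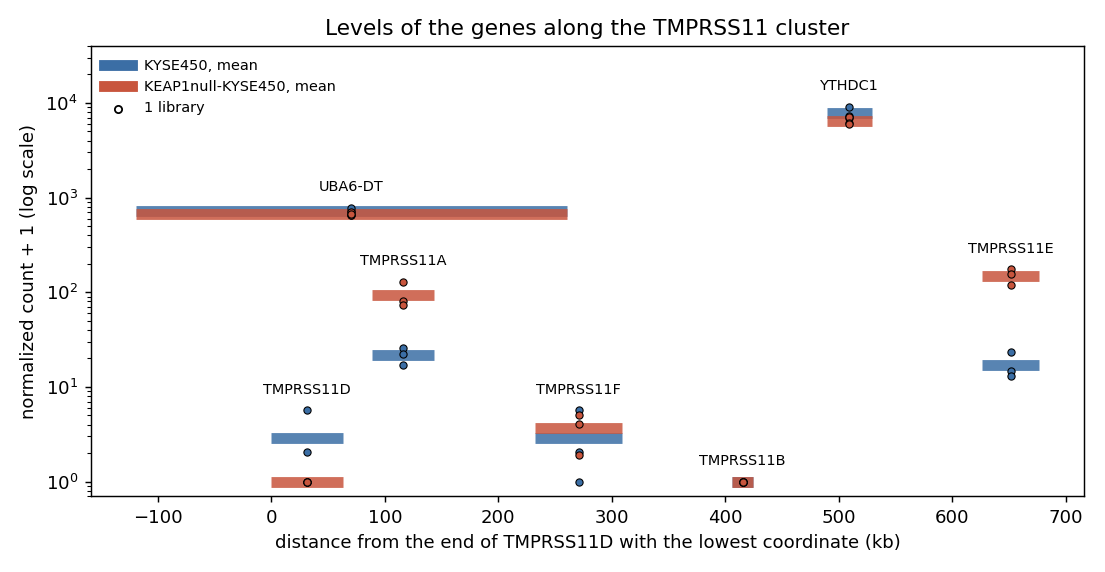
Normalized count plus 1 (log scale) along the TMPRSS11 cluster, with each gene's span as a bar at the mean of each line and a point for each library. The horizontal axis is the distance in kb from the end of TMPRSS11D. TMPRSS11A and TMPRSS11E stand higher in KEAP1null-KYSE450 (red), UBA6-DT and YTHDC1 lie close together in both lines, and the pseudogenes and RNU6-95P are not drawn.

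The genes beside SCNN1G and SCNN1B on chromosome 16 did not pass both thresholds. USP31, a deubiquitinase gene 33.293 kb before SCNN1G, was at a log2 fold change of -0.35 ± 0.11 (SE), with an adjusted p of 0.021 in limma, opposite in direction to the 2 subunits. COG7, which encodes a subunit of the Golgi tethering complex and lies 7.199 kb after SCNN1B, differed by 0.023 ± 0.13 (SE), with an adjusted p of 0.90 in limma. Exons of LTBR overlap SCNN1A on the other strand over 422 bases, 7.18% of its exonic length, and LTBR had a log2 fold change of -0.16. SPINT1-AS1 overlaps 100 exonic bases of SPINT1 (2.82%) and had a log2 fold change of 0.47. Whether counting used strand was not given in the sources used here, so reads in these overlaps cannot be assigned with certainty.

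For each subunit the 2 genes outside the list with the most similar profile were found by Euclidean distance of the centered log2 values over the 6 libraries. For SCNN1A these were SNX25P1 (distance 0.135) and KIAA1549 (0.135), the latter at 2255, 1606 and 1575 normalized counts in KYSE450 and 3165, 2582 and 2557 in KEAP1null-KYSE450. SCNN1B was closest to AC097713.1 (0.335) and to KRT4 (0.437), a keratin of the suprabasal layers of the esophageal lining. KRT4 was at 734, 581 and 587 normalized counts in KYSE450 and at 24520, 22126 and 21604 in KEAP1null-KYSE450. LINC00858 (1.19) and TMPRSS13 (1.24) were the closest to SCNN1G. These distances describe 6 values per gene from 2 lines, so any gene that separates the lines by a like amount comes out close.

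Of 21 listed regulators and partners of the channel, 18 were tested, of which 1 passed both thresholds upward, 3 downward and 14 neither, where 18.2% of all genes tested passed in either direction. By adjusted p alone in limma 3 were higher and 7 lower, against 24.3% and 25.5% of all genes tested. The lines did not overlap for 11 of the 18 tested, against 57.8% of all genes tested. The median log2 fold change of these 18 was -0.18 against 0.0041 over all genes. SCNN1D, which encodes the delta subunit that can replace alpha, was at 29.9, 30.3 and 42.9 normalized counts in KYSE450 and at 48.9, 75.4 and 94.8 in KEAP1null-KYSE450. It was higher by 1.03 ± 0.33 (SE) on the log2 scale, with an adjusted p of 0.019 in limma, and the call was lost without KYSE450 library 1 or 2 or KEAP1null-KYSE450 library 2 or 3 (0.82 to 0.99). FXYD5 and ATP1B1, a regulator and a beta subunit of the sodium pump that drives uptake through the channel, had log2 fold changes of -1.51 and -1.22, and USP2, a deubiquitinase reported to act on the channel, fell by 1.27 (adjusted p = 2.0e-06, 5.4e-05 and 0.0051, limma). NEDD4L, the ubiquitin ligase that removes the channel from the membrane, had a log2 fold change of -0.56 (adjusted p = 0.0037, limma), under the fold asked of a call. SGK1, the kinase that restrains NEDD4L, was at 3979 to 4919 and 4159.5 to 4329 normalized counts, with a log2 fold change of -0.083 (adjusted p = 0.51, limma) whose sign differed between settings.

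Most other membrane serine proteases were close to absent. Of 15 listed, 5 were at 0 in every library and 2 were tested. TMPRSS13, a type II transmembrane protease of stratified epithelium, was at 0, 0 and 2.80 normalized counts in KYSE450 and at 17.5, 31.6 and 29.3 in KEAP1null-KYSE450. In recovered reads this was 3 against 50, a ratio of 16.2 (exact 95% interval 5.24 to 81.2), and it too reached the filter only through KEAP1null-KYSE450. HPN (hepsin) was at 15.0, 0 and 0 and at 8.30, 20.4 and 19.2, which overlap. HPN also reached the filter only through KEAP1null-KYSE450. It passed both thresholds with a log2 fold change of 2.66 (adjusted p = 0.048, limma), but lost the call whenever a library other than KYSE450 library 1 was left out.

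SPINT2, the other Kunitz-type inhibitor, was at 8668, 8135 and 7534 normalized counts in KYSE450 and at 7286, 5732 and 5722 in KEAP1null-KYSE450, a log2 fold change of -0.38 (adjusted p = 0.012, limma) that did not reach the fold asked of a call. Its adjusted p rose to 0.068 and 0.066 in limma without KEAP1null-KYSE450 library 2 or 3. Of 13 substrates and activators of these proteases, 10 were tested and 4 passed both thresholds downward and none upward, against 5.98% and 12.2% of all genes tested. By adjusted p alone in limma 6 were lower and 3 higher, against 25.5% and 24.3%, and the median log2 fold change was -0.85 against 0.0041 over all genes. F2RL1, which encodes the protease-activated receptor that trypsin-like enzymes such as matriptase and TMPRSS11D cleave, was at 6912, 6749 and 7728 normalized counts in KYSE450 and at 1606, 1341 and 1294 in KEAP1null-KYSE450. The log2 fold change of F2RL1 came to -2.34 ± 0.11 (SE), with an adjusted p of 4.3e-09 in limma. FURIN, the convertase that cleaves the alpha and gamma subunits in the Golgi, was at 4016, 2851 and 2658 normalized counts in KYSE450 and at 1609, 1315 and 1262 in KEAP1null-KYSE450. Its log2 fold change of -1.17 (adjusted p = 4.7e-05, limma) became -0.99 without KYSE450 library 1, which ended the call. PLAUR, the urokinase receptor, fell by 2.73 and MST1R, the receptor for macrophage-stimulating protein, fell by 1.18 on the log2 scale (adjusted p = 1.5e-06 and 5.5e-06, limma).

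**Figure D5:**
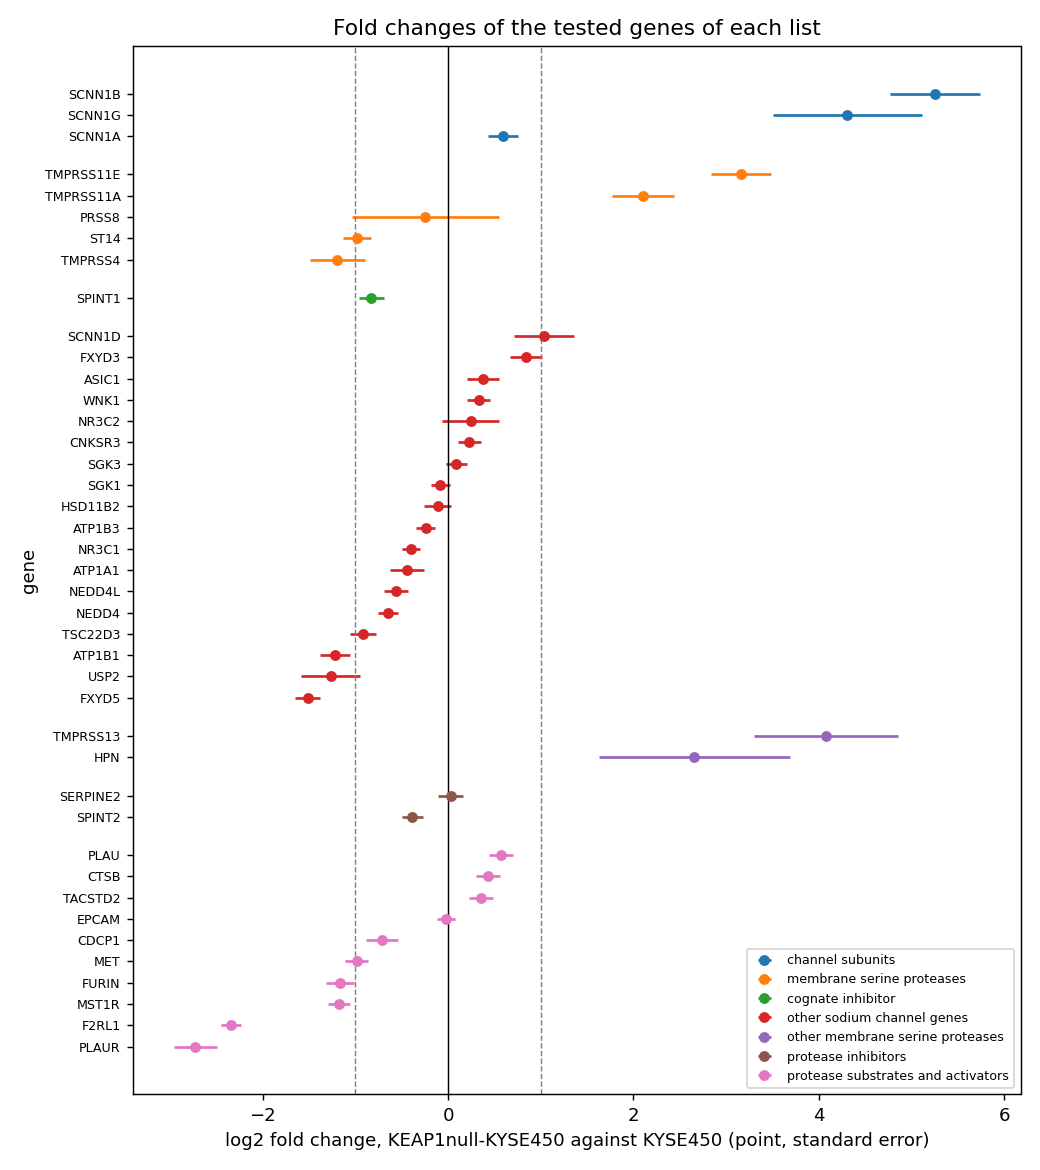
Log2 fold change of KEAP1null-KYSE450 against KYSE450 for each tested gene, grouped by list, with the standard error as a horizontal bar and broken lines at 1 and -1. SCNN1B, SCNN1G, TMPRSS11E, TMPRSS11A, TMPRSS13 and HPN lie beyond 2, whereas most other sodium channel genes lie between the broken lines.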

How the data were processed

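RNA sequencing of 3 KYSE450 and 3 KEAP1null-KYSE450 libraries was analysed. The authors deposited 1 table of normalized counts, here taken as a signal. Per the submitters' processing notes they used FastQC 0.11.5, cutadapt 1.12, STAR 2.6.90c and featureCounts 1.5.1. Those notes name both hg38 and mm10, and hg38 is the build in the study's methods. The methods name a RefSeq annotation, while genes carry Ensembl identifiers, and strand in counting was not given in the sources used here. Replicate numbers are missing from the columns, which name only the line, and libraries are numbered here by column order, and 0 columns belonged to other samples.

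The members and gene lists were chosen with earlier results of these data known. The lines were compared with limma 3.58.1 (R 4.3.3, eBayes with trend, two-sided) on log2 of the normalized count plus 1, for the 16701 genes whose mean reached 10, with Benjamini-Hochberg adjustment. For genes at or near 0 in a library the fold change depends on the value added. A call needed a log2 fold change of 1 or more in size and an adjusted p under 0.05. Named were the members, genes of the pathway lists past both thresholds (up to 5 in each direction per list, with 1 exception that is not reported here), SCNN1D, NEDD4L, SGK1, SPINT2, FURIN, F2RL1, KEAP1, chromosomal neighbors and the profiles nearest to each subunit. Where a symbol had several entries, the one with the highest mean was used.

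In 4 libraries 100% of values were whole multiples of 1 read (tolerance 0.1), and in the other 2 whole reads were not recovered. edgeR 4.0.16 and DESeq2 1.42.0 were run on those reads as alternatives, and exact intervals of read ratios cover counting error only. Further settings tried were no filter or a mean of 100 as filter, a pseudocount of 0.1 or 10, 2 other scalings, eBayes without trend, no fold cutoff and each library left out. The tests were tried on simulated data. Levels between genes were divided by the union of gencode v44 exons.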

Additional observations from a re-analysis of the deposited data

How the results depend on the processing

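No paired analysis was possible because the columns of the table carry no replicate number. Genes past both thresholds numbered 2045 higher and 999 lower, against 1826 and 872 with edgeR and 1623 and 877 with DESeq2 on the 4 libraries with recovered reads. With each library left out they numbered 1748 to 2018 and 874 to 1094. With a mean of at least 100, which none of the 4 members called higher reaches, 875 genes and 0 members were higher, and 0 other sodium channel genes and 0 other membrane proteases. Without the fold cutoff 4060 genes were higher and 4251 lower, 3 members lower, 3 other sodium channel genes higher and 7 lower, 1 inhibitor lower and 3 substrates or activators higher. Other sodium channel genes called higher were 0 with a pseudocount of 10, quantile normalization, edgeR or DESeq2, and 2 without a filter. Other membrane proteases called higher were 1 with a pseudocount of 10, no filter, quantile normalization, eBayes without trend, edgeR or DESeq2. With each library left out, members called lower numbered 0 to 2, other sodium channel genes higher 0 to 1 and other membrane proteases higher 1 to 2. SCNN1B, SCNN1G, TMPRSS11A and TMPRSS11E kept direction and call in all alternatives that tested them, as did F2RL1, PLAUR, MST1R, FXYD5, ATP1B1, USP2 and TMPRSS13. By adjusted p alone, SCNN1A was lost under eBayes without trend (adjusted p = 0.064, limma), NEDD4L with edgeR (0.058) and DESeq2 (0.051), and SPINT2 with quantile normalization (0.097), eBayes without trend (0.061), edgeR (0.23), DESeq2 (0.19) and without KEAP1null-KYSE450 library 2 (0.068) or 3 (0.066). With each library left out PRSS8 ranged from -1.08 to 0.36, reversed without KYSE450 library 1 or 3 or KEAP1null-KYSE450 library 1. SGK1 was reversed at 0.067 with quantile normalization and 0.028 with edgeR. KEAP1 was reversed at 0.016 with the same total per library and 0.14 with quantile normalization, and ranged from -0.072 to 0.040 with each library left out. The HPN call was lost in 11 of 15 alternatives and the SCNN1D call in 8 of 15. By transcript length, 6 members in KYSE450 and 4 in KEAP1null-KYSE450 took another place in the order of levels. Where no cause is given here, it was not tested. SCNN1B, SCNN1G, TMPRSS11D and PRSS8 each had a library at or under 3 reads.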
